A study of Mus musculus with 20 samples.

Results

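The effect of the DOT1L inhibitor SGC0946 on cultured T helper 2 (Th2) cells was followed in 4 RNA-seq libraries out of 20 in the study. The 4 libraries were picked by culture condition and compound, and no measured value entered that rule, although earlier results of these data were known. They form 2 groups of 2: WT Th2 cultures with 1 µM SGC0946, and WT Th2 cultures with 1 µM SGC0649, the control compound for that inhibitor. The cells were CD4+ T cells taken from spleens and lymph nodes of CD4Cre+ mice, which carry a Cre recombinase driven by Cd4 and intact Dot1l, so the Cre was present in both groups. They were activated for 4 days with plate-bound antibodies to CD3 and CD28 (1 µg/ml of each), in medium with IL-4 and IL-2 at 10 ng/ml and an IFN-γ antibody at 10 µg/ml, and viable CD4+ cells were then sorted. The other groups used, with 2 libraries each, serve as points of reference. They are KO and WT Th2 cultures without compound, where KO cells came from CD4Cre+DOT1L FL/FL mice, and WT Th1 cultures (IL-12, IL-2 and an IL-4 antibody). The Th1 cultures had SGC0946 or SGC0649 at the same dose, or no compound. Those without compound served only to choose genes that differ between Th2 and Th1.

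DOT1L is the enzyme that methylates lysine 79 of histone H3 within the bodies of transcribed genes, a mark that accompanies transcript elongation. SGC0946 blocks its catalytic site while the protein and its gene stay in place, whereas deletion removes the protein. Th2 cells are the helper lineage that makes IL-4, IL-5 and IL-13 under the transcription factor GATA3, and activated T cells of this kind also display TNF family ligands, receptors that restrain activation, and receptors that steer traffic between tissue and lymph.

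Protein-coding counts were 9824264 to 10423864 in the 4 libraries and 9704500 to 13025588 over all 20, and 52.1% to 54.5% of alignments were assigned to genes in the 4. The 2 SGC0649 libraries differed from each other more than the replicates of any other group: the SD of their log2 difference over 8299 well-expressed genes (mean log2 CPM 4 or more) was 0.337, against 0.229 for the SGC0946 pair and 0.132 to 0.325 for the other groups. By the root mean square of the log2 differences over the same genes, SGC0649 replicate 1 lay 0.216 and 0.248 from the untreated WT Th2 libraries, and SGC0649 replicate 2 lay 0.358 and 0.446 from them. The total count, the called genes examined singly and the list counts were therefore recomputed with each library left out. The difference between replicates 1 and 2 was partly shared by the 2 compounds (correlation 0.703 over the same genes), while the main fit took the libraries as unpaired. Each leave-out thus also left the replicate numbers unequal between the groups. The labels do not say whether replicates came from separate animals, so p-values measure the spread between libraries of a group, which may be technical, and that spread was estimated over all 10 groups of the study and not from these 4 libraries alone. The count table also names both SGC0946 columns with the number 1 where the sample titles give 1 and 2. In the 4 libraries the summed level of 8 CD4 T cell markers was 3466 and 3109 CPM with SGC0946 and 3210 and 2784 CPM with SGC0649, while the CD8 markers Cd8a and Cd8b1 together held 14.4 and 16.4 CPM with SGC0946 and 14.5 and 16.03 CPM with SGC0649. CPM here are counts scaled to a common library size and composition. In such bulk libraries, fewer cells of a type and less RNA per cell cannot be told apart.

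With SGC0946, Lta, Cd200, Btla, Tnfsf8 and Tnf were lower than with SGC0649, and Myb, Slamf6, Prdm1, Epcam and S1pr1 were higher. Across 13072 genes tested in edgeR's quasi-likelihood fit, 1040 genes (7.96%) passed a Benjamini-Hochberg adjusted p of 0.05, of which 712 (5.45%) were higher and 328 (2.51%) lower with SGC0946. Most changes were small. The median log2 fold change was 0.72 among the higher genes and -0.56 among the lower ones, and 220 higher and 43 lower genes changed at least 2-fold. The ranges of both groups were apart for all 712 higher genes and 327 of the lower ones, and also for 5750 (44%) of all tested genes.

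The count depended on single libraries. Without SGC0649 replicate 2 it fell to 448 genes (235 higher and 213 lower), without SGC0649 replicate 1 it was 2010 (1219 and 791), without SGC0946 replicate 1 it was 321 (223 and 98) and without SGC0946 replicate 2 it was 656 (464 and 192). In all 5 fits 205 genes were called in 1 direction, 147 higher and 58 lower. The fit with the replicate number as a block gave 1647 genes. With the 4 libraries alone edgeR called 0 genes, with 1726 at an unadjusted p under 0.05, and limma voom also called 0, with 1725, whereas DESeq2 called 219. Of 95 called genes examined one by one, 33 kept their call in each of the 4 leave-outs, and these are called stable here. None of the 33 lost its call with DESeq2, limma voom, RLE scaling, no low-count filter, the table of all gene classes, the 12 WT culture libraries alone or the replicate block. In edgeR and limma voom on the 4 libraries alone all 33 lost it. With DESeq2 on those 4 libraries Tnfsf4, Pdcd1lg2, Tnfrsf25, Glis3 and Arhgap32 lost it too.

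**Figure D1:**
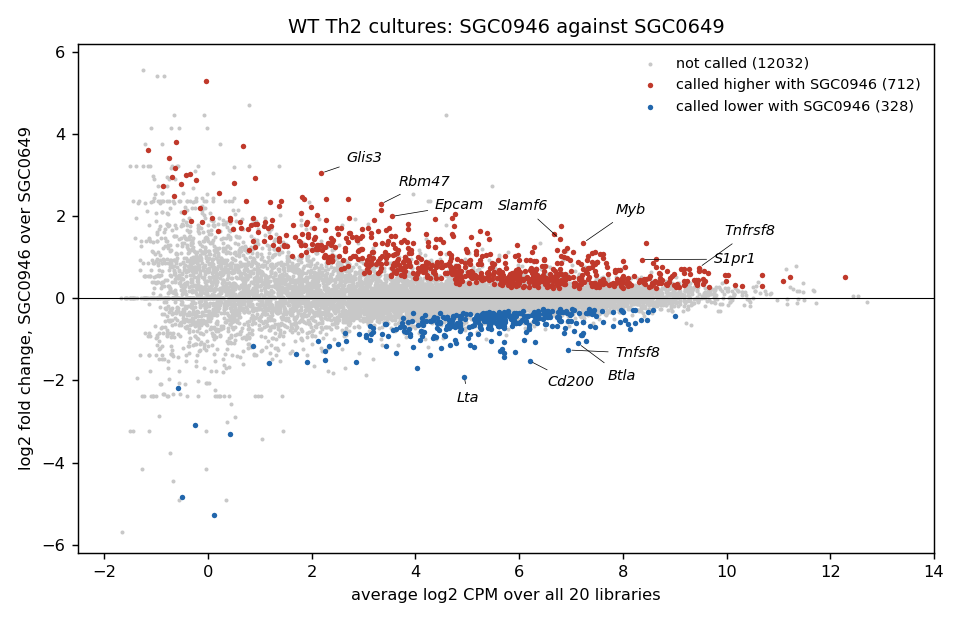
Each point is 1 of 13072 genes, with the average log2 CPM over all 20 libraries on the horizontal axis and the log2 fold change of SGC0946 over SGC0649 in WT Th2 cultures on the vertical axis. The 712 genes called higher are red and the 328 called lower are blue; named examples lie between Lta at -1.90 and Glis3 at 3.05.

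Among TNF family ligands the changes ran mostly downward. Of 13 tested ligands 5 fell, 1 rose and 7 were not called (46.2% called, beside 7.96% of all tested genes). The median log2 fold change of the list was -0.23, beside 0.01 over all tested genes. Lta encodes lymphotoxin α, a cytokine that shapes lymphoid tissue. It had 14.8 and 11.8 CPM in SGC0946 cultures, against 44.2 and 55.3 CPM in SGC0649 cultures. The groups were well apart, and the log2 fold change was -1.90 ± 0.19 (SE, n = 2 libraries per group; edgeR adjusted p = 1.86e-05). Tnf, its neighbour on chromosome 17 and the gene of TNF itself, had 5.92 and 5.89 CPM with SGC0946 and 14.3 and 15.3 CPM with SGC0649 (-1.32 ± 0.19, edgeR adjusted p = 0.000423). Tnfsf8, the ligand of CD30, had 72.8 and 75.7 CPM with SGC0946 and 188.8 and 166.5 CPM with SGC0649 (-1.26 ± 0.14, edgeR adjusted p = 5.97e-05). In these 3 genes both SGC0946 libraries lay far below both SGC0649 libraries. Tnfsf4, which encodes OX40 ligand, also fell (-1.19 ± 0.19), and Cd40lg, whose product licenses B cells, fell less (-0.51 ± 0.13, edgeR adjusted p = 0.0198). The ligand that rose was Tnfsf13b, the B cell survival factor BAFF, with 9.53 and 13.8 CPM in SGC0946 cultures and 5.03 and 3.21 CPM in SGC0649 cultures (1.51 ± 0.29). Lymphotoxin β, the membrane partner of lymphotoxin α, had a log2 fold change of -0.22 ± 0.12 at Ltb that did not pass (edgeR adjusted p = 0.285). Cd70 had 0 counts in both SGC0946 libraries and 2 in each SGC0649 library. Lta, Tnf, Tnfsf8 and Tnfsf4 were stable. Cd40lg and Tnfsf13b lost their calls without SGC0649 replicate 2 or SGC0946 replicate 2, so that 4 or 5 ligands were lower in every leave-out.

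Lta lies on the minus strand at chr17:35203165-35205351 and Tnf on the same strand at chr17:35199381-35202007 (GRCm38), and Ltb lies beyond Tnf at chr17:35194439-35196320. Of 21 tested genes from 150 kb on one side of this cluster to 150 kb on the other, Lta and Tnf fell, Clic1 (0.27 ± 0.08) and H2-Q2 (0.64 ± 0.19) rose and 17 were not called; the calls on Clic1 and H2-Q2 were not recomputed with libraries left out. The windows from 250 bases before to 50 bases after the RefSeq start of Lta and Tnf (GRCm38.p6, minus strand, chr17:35205302-35205601 and chr17:35201958-35202257) are shown because these neighbours fell together. They were searched on both strands for TGANTCA (the AP-1 type), GGGNNNNNCC (the NF-κB type) and TATAAA, and capitals mark the matches.
Lta: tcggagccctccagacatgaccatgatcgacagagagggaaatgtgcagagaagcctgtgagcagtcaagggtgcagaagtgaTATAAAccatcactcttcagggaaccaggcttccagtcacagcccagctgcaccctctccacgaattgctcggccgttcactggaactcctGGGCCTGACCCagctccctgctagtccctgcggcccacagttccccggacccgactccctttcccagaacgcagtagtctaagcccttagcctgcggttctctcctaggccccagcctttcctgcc
Tnf: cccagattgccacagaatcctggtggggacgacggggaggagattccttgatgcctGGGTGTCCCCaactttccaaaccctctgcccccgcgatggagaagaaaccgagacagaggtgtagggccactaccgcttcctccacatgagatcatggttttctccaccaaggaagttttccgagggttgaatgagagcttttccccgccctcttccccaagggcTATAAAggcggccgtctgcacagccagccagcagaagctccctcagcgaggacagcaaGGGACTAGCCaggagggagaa
Both windows hold TATAAA, 167 bases before the start in Lta and 29 bases before it in Tnf. The Lta window holds 2 overlapping GGGNNNNNCC matches in 1 run and the Tnf window 2 separate ones, and TGANTCA is in neither. Of 27025 RefSeq promoter windows of this length, 14.2% hold TATAAA, 50.4% GGGNNNNNCC and 7.93% TGANTCA. The windows of Cd200 and Btla hold none of these motifs.

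Receptors of the TNF family had more rises than falls with all libraries in the fit. Of 12 tested, 3 rose and 1 fell (33.3% called, beside 7.96% of all tested genes). The rises of Tnfrsf1b and Tnfrsf18 did not hold in most leave-outs, as given below. Tnfrsf8, the CD30 receptor for the ligand that Tnfsf8 encodes, had 1456 and 1543 CPM with SGC0946 and 867 and 916 CPM with SGC0649 (0.75 ± 0.09, edgeR adjusted p = 0.000109), so ligand and receptor moved in opposite directions with no overlap in either. Tnfrsf1b, the TNFR2 receptor of TNF, rose by a log2 fold change of 0.40 ± 0.10 and Tnfrsf18, the costimulator GITR, by 0.33 ± 0.10. Tnfrsf25, the death receptor DR3 that binds TL1A, fell (-0.71 ± 0.12). Tnfrsf8 and Tnfrsf25 were stable, while Tnfrsf18 lost its call in each leave-out and Tnfrsf1b in all but the one without SGC0649 replicate 1.

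**Figure D2:**
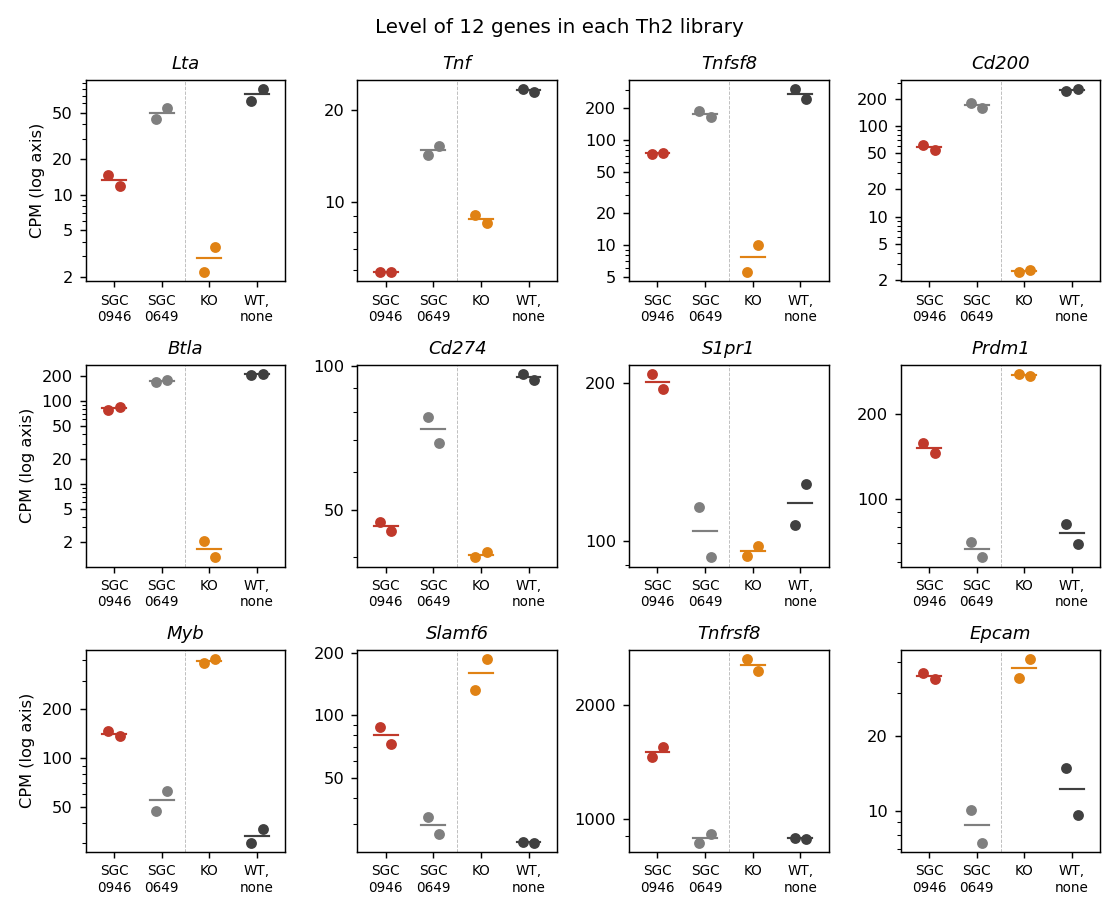
Each point is the level of a gene in 1 Th2 library, in CPM on a log axis, and each line is the mean of the 2 libraries of a group, with SGC0946, SGC0649, KO and WT without compound from left to right in each of 12 panels. In every panel the SGC0946 points lie apart from the SGC0649 points, and S1pr1 is the panel in which KO lies below its WT while SGC0946 lies above SGC0649.

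Genes of inhibitory signalling went both ways: of 16 tested, 4 fell and 4 rose with all libraries in the fit. That is 50% called, beside 7.96% of all tested genes. The falls held in each leave-out and most of the rises did not, as given below. Cd200 encodes a surface glycoprotein that restrains cells bearing its receptor. Its level was 62.1 and 54.8 CPM in SGC0946 cultures, against 177 and 158.5 CPM in SGC0649 cultures (-1.52 ± 0.14, edgeR adjusted p = 1.65e-05). Btla, the inhibitory receptor for HVEM, had 77.5 and 83.8 CPM with SGC0946 and 167.1 and 178.3 CPM with SGC0649 (-1.10 ± 0.12, edgeR adjusted p = 4.50e-05). Both groups were far apart for both genes. The PD-1 ligands fell as well, Cd274 by a log2 fold change of -0.67 ± 0.09 and Pdcd1lg2 by -0.82 ± 0.15. The 4 that rose were the inhibitory receptors Lag3 (0.77 ± 0.12) and Tigit (0.94 ± 0.20), the ectoenzyme gene Entpd1 (0.94 ± 0.22), and Cd200r1, the receptor of CD200 (0.73 ± 0.17, edgeR adjusted p = 0.0166). Cd200r1 had 51.4 and 51.3 CPM with SGC0946 and 34.5 and 27.5 CPM with SGC0649, so this ligand and receptor pair also moved in opposite directions. Pdcd1 and Ctla4, the genes of PD-1 and CTLA-4, had log2 fold changes of 0.09 and 0.36 and were not called. All 4 genes that fell were stable, and of the 4 that rose Lag3 was. Tigit and Entpd1 lost their calls without SGC0649 replicate 2 or SGC0946 replicate 1, and Cd200r1 without either of these or SGC0946 replicate 2. Btla (chr16:45224315-45252895, plus strand) and Cd200 (chr16:45382135-45409053, minus strand) are near each other, and within 150 kb of them the 2 other tested genes, Slc35a5 (-0.03 ± 0.16) and Atg3 (-0.31 ± 0.10), were not called.

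Genes of egress, homing and quiescence ran mostly upward with all libraries in the fit, with 7 of 16 higher and 1 lower (50% called, beside 7.96% of all tested genes). The list median was 0.37, beside 0.01 over all tested genes. Most of these calls were lost in at least 1 leave-out, as given below. S1pr1 encodes the sphingosine-1-phosphate receptor that lymphocytes follow out of lymphoid tissue. It had 208 and 194.1 CPM in SGC0946 cultures, against 115.7 and 92.9 CPM in SGC0649 cultures (0.95 ± 0.10, edgeR adjusted p = 5.13e-05), with no overlap. Its lymphoid paralogue S1pr4 rose by 0.45 ± 0.10 on the log2 scale. Klf2, the factor that activates S1pr1 transcription, had a log2 fold change of 0.88 ± 0.24 (edgeR adjusted p = 0.0387) and Foxo1, which acts upstream of Klf2, one of 0.38 ± 0.09. The others that rose were Itgb7, a chain of gut-homing integrins (0.71 ± 0.14), Cxcr4, the receptor of CXCL12 (0.77 ± 0.17), and Foxo3 (0.37 ± 0.07). Gpr183, the oxysterol receptor EBI2, fell (-0.46 ± 0.13, edgeR adjusted p = 0.0399). The lymph node homing gene Ccr7 (-0.02 ± 0.15) was not called. S1pr1 was the only one of these 8 genes that was stable, and Klf2 lost its call in each leave-out. The list count was 9 higher and 0 lower without SGC0649 replicate 1, 2 and 1 without SGC0649 replicate 2, 1 and 1 without SGC0946 replicate 1, and 7 and 0 without SGC0946 replicate 2.

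**Figure D3:**
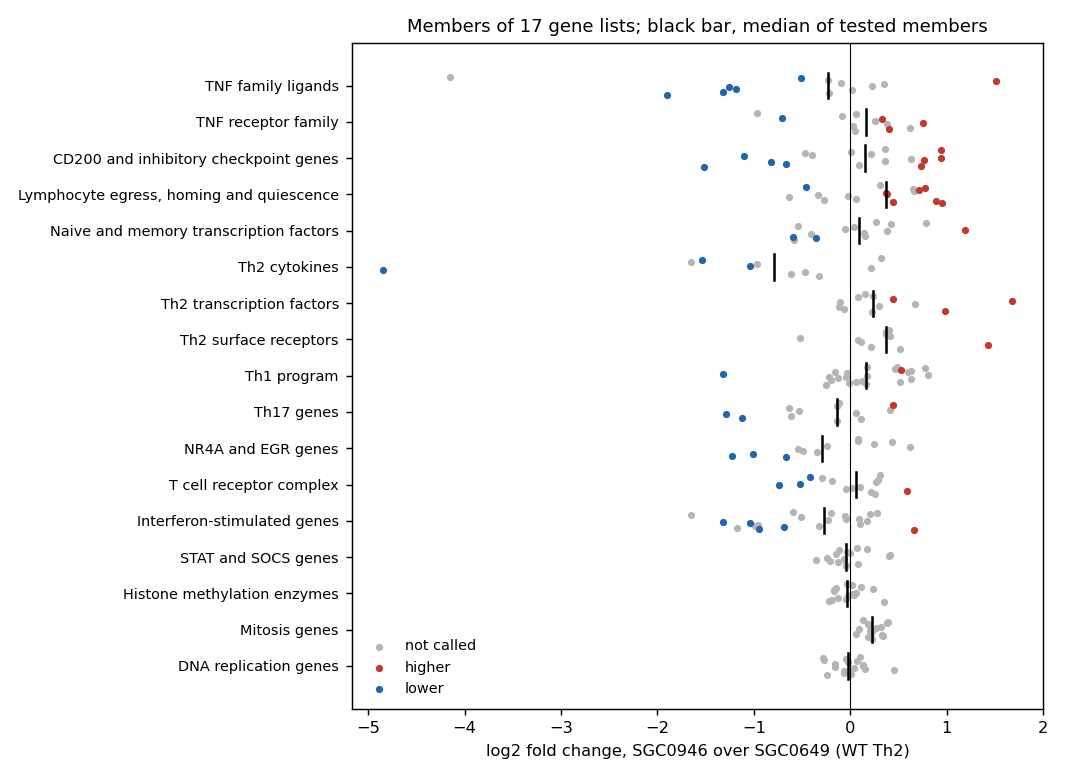
Each point is a tested member of 1 of 17 gene lists, placed by its log2 fold change of SGC0946 over SGC0649 in WT Th2 cultures; red points were called higher, blue points lower, grey points not called, and the black bar is the list median. Called TNF ligands lie mostly left of 0 and called egress genes mostly right of it, while the STAT and SOCS, histone methylation, mitosis and DNA replication lists hold no called gene.

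Several transcription factor genes rose. Myb, a progenitor factor known as a DOT1L-dependent gene in MLL-rearranged leukaemia, had 146.6 and 136.4 CPM with SGC0946 and 47.5 and 62.8 CPM with SGC0649 (1.36 ± 0.11, edgeR adjusted p = 1.46e-05). It was the only one of 9 tested genes of that leukaemia list that was called, and it rose. That share (11.1%) is near the 7.96% of all tested genes, so the count does not set the list apart. Prdm1, which encodes the effector factor Blimp-1, had 157.5 and 145.9 CPM with SGC0946 and 70.8 and 62.3 CPM with SGC0649 (1.19 ± 0.12, edgeR adjusted p = 1.86e-05). Prdm1 was the 1 gene that rose in a list of 14 transcription factors associated with naive and memory T cells, in which 2 fell, Bach2 (-0.60 ± 0.17) and Lef1 (-0.35 ± 0.08), 8 had positive log2 fold changes and the median was 0.09. Of this list 21.4% was called, beside 7.96% of all tested genes. Tcf7 had -0.59 and was not called. Myb and Prdm1 were stable. Lef1 lost its call without SGC0946 replicate 2, and Bach2 without that library or SGC0649 replicate 1, so that without SGC0946 replicate 2 this list had 2 higher and 0 lower genes.

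The genes that define the Th2 lineage showed no single direction. Gata3 had 334.7 and 330.1 CPM in SGC0946 cultures, against 301.9 and 265.7 CPM in SGC0649 cultures, and this difference did not pass (0.23 ± 0.13, edgeR adjusted p = 0.319). Of 12 Th2 transcription factor genes 3 rose and 0 fell (25% called, beside 7.96% of all tested genes). They were Maf, an activator of Il4 (0.98 ± 0.21), Bhlhe41 (1.68 ± 0.33) and Batf (0.44 ± 0.10). Maf and Batf lost their calls without SGC0649 replicate 2 or SGC0946 replicate 1, and Bhlhe41 without SGC0946 replicate 1. Of 10 Th2 cytokine genes 3 fell and 0 rose (30% called, beside the same 7.96%), and the list median was -0.79. Il24, a cytokine of the IL-10 family, had 188.3 and 229.2 CPM with SGC0946 and 458.4 and 401.8 CPM with SGC0649 (-1.04 ± 0.13, edgeR adjusted p = 0.000309), and it was stable. Il9 had 1 count in each SGC0946 library and 9 and 56 counts in the SGC0649 libraries (edgeR adjusted p = 0.0321). Csf2, which encodes GM-CSF, had 2.01 and 1.68 CPM with SGC0946 and 2.96 and 7.73 CPM with SGC0649 (-1.54 ± 0.42, edgeR adjusted p = 0.0327). For Il9 and Csf2 the higher value came from SGC0649 replicate 2, and both lost their calls without that library or either SGC0946 library.

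The signature cytokines were not called. Il4 had 51.4 and 53.4 CPM with SGC0946 and 65.6 and 65.5 CPM with SGC0649 (-0.32 ± 0.25, edgeR adjusted p = 0.482). Il13 had 272.3 and 335 CPM with SGC0946 and 305.3 and 533.6 CPM with SGC0649 (-0.47 ± 0.24, edgeR adjusted p = 0.268), and the groups overlapped. Il5 had 82.4 and 66.9 CPM with SGC0946 and 101.8 and 126.4 CPM with SGC0649 (-0.61 ± 0.19, edgeR adjusted p = 0.0556), which passed with the replicate block (adjusted p = 0.0112) and in limma voom (adjusted p = 0.0118). Without SGC0649 replicate 1 both Il5 and Il13 passed (adjusted p = 0.0232 and 0.0298). Of 10 Th2 surface receptors 1 rose and none fell (10% called, beside 7.96% of all tested genes). It was Il17rb, the receptor of IL-25, at 8.42 and 8.98 CPM with SGC0946 and 4.43 and 2.08 CPM with SGC0649 (1.42 ± 0.33). Its call was kept only without SGC0649 replicate 1 among the leave-outs. Among 12 chemokine receptors only Ccr3, the eotaxin receptor, was called (8.33%, beside the same 7.96%). Ccr3 rose (1.22 ± 0.32) and lost its call in each leave-out. Neither count sets its list apart. Mast cell and basophil markers, which share several of these cytokines and receptors, had a summed level of 277.6 and 286.9 CPM with SGC0946 and 165.2 and 235.6 CPM with SGC0649, with 0 of 10 called, and their part in these results was not tested.

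Genes of the opposite lineage were called about as often as all genes. Of 23 Th1 genes 2 (8.7%) were called, beside 7.96% of all tested genes: Tnf fell and Gzmb, the gene of granzyme B, rose (0.52 ± 0.14, edgeR adjusted p = 0.0333), a call on Gzmb that was lost without SGC0649 replicate 1 or either SGC0946 library. Ifng had 21.6 and 15.2 CPM with SGC0946 and 16.9 and 26.6 CPM with SGC0649, an overlap, and a log2 fold change of -0.25 ± 0.32. Tbx21, the gene of the Th1 factor T-bet, had a log2 fold change of 0.17 ± 0.16, and neither was called (edgeR adjusted p = 0.702 for Ifng and 0.594 for Tbx21). The 200 genes with the highest Th2 over Th1 ratio in WT cultures without compound had a median log2 fold change of 0.32 with SGC0946, with 32 (16%) called higher and 9 (4.5%) lower. The 200 genes with the highest Th1 over Th2 ratio had a median of 0.20, with 24 (12%) higher and 5 (2.5%) lower, beside 5.45% and 2.51% of all tested genes. Across the 4 possible pairs of an SGC0946 with an SGC0649 library, the SD of these medians was 0.212 for the Th2 genes and 0.178 for the Th1 genes. The pairs share libraries and both medians come from the same pairs, so these SDs do not measure the spread of their difference. Whether the 2 medians differ was not tested. With 50 genes in place of 200 the Th2 median was -0.11.

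Of 12 NR4A and EGR genes, which T cell receptor signalling induces, 3 fell and 9 were not called (25% called, beside 7.96% of all tested genes). All 3 members of the NR4A family of nuclear receptors, which T cells switch on when the receptor is engaged, were lower, Nr4a2 by -1.22 ± 0.20, Nr4a3 by -1.01 ± 0.14 and Nr4a1 by -0.66 ± 0.14 on the log2 scale. Nr4a2 had 14.4 and 9.44 CPM in SGC0946 cultures and 32.1 and 23.6 CPM in SGC0649 cultures, with no overlap. The EGR genes Egr1, Egr2 and Egr3 had log2 fold changes of -0.35, -0.49 and -0.54, and neither they nor Fos and Jun were called. Nr4a2 and Nr4a3 were stable, and Nr4a1 lost its call without SGC0946 replicate 2, a fit in which 2 other genes of the list were called higher. In the receptor complex list 28.6% of 14 genes were called, beside the same 7.96%. Of this list 3 genes fell, among them Cd5, a brake on receptor signalling whose level tracks its strength (-0.74 ± 0.12, edgeR adjusted p = 0.00142). The related scavenger receptor gene Cd6 fell as well (-0.52 ± 0.14). Cd3g rose (0.59 ± 0.14), and Cd4 itself had a log2 fold change of 0.01. Cd5 was stable. Cd6 lost its call without SGC0649 replicate 1 or SGC0946 replicate 2, and Cd3g lost it without SGC0649 replicate 2 or SGC0946 replicate 1.

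Smaller groups held changes in both directions. The share called was 41.7% of the follicular helper list, 25% of the Th17 list and 38.5% of the regulatory T cell list. It was 22.7% of the interferon-stimulated list, beside 7.96% of all tested genes. Among 12 follicular helper genes, Slamf6 rose, with 88.2 and 72.9 CPM in SGC0946 cultures and 32.3 and 26.7 CPM in SGC0649 cultures (1.45 ± 0.16, edgeR adjusted p = 4.92e-05), as did Sh2d1a, the adaptor that binds SLAM receptors (0.58 ± 0.13), while Il21 (-0.68 ± 0.19), Btla and Cd40lg fell. The Th17 cytokine genes Il17a (-1.12 ± 0.28) and Il22 (-1.29 ± 0.36) fell, at 37 and 29.2 CPM with SGC0946 and 84.8 and 59.4 CPM with SGC0649 for Il17a. Of 13 regulatory T cell genes Tigit, Nrp1 (0.83 ± 0.24) and Tnfrsf18 rose, Gpr83 (-0.92 ± 0.23) and Izumo1r (-0.71 ± 0.17) fell, and Foxp3, the lineage factor, had -0.18 and was not called. Of these genes Slamf6 and Btla were stable. Il17a, Il21, Gpr83 and Izumo1r lost their calls without SGC0649 replicate 1 or either SGC0946 library, Il22 without SGC0649 replicate 2 or either SGC0946 library, and Sh2d1a without SGC0649 replicate 2 or SGC0946 replicate 1. Of 22 interferon-stimulated genes 4 fell, Oasl2 (-1.32 ± 0.33), Oasl1 (-1.04 ± 0.30), Isg15 (-0.94 ± 0.22) and Ifit2 (-0.69 ± 0.19), and Mx1 rose (0.66 ± 0.17). Without SGC0649 replicate 1 this list had 1 higher and 3 lower genes, and without any of the 3 other libraries it had 0 called. In the survival and stress lists the anti-apoptotic gene Bcl2l1 fell (-0.65 ± 0.10, stable) and the stress factor gene Atf3 fell (-1.27 ± 0.26, edgeR adjusted p = 0.0103), a call lost in all leave-outs but that of SGC0649 replicate 1.

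Growth and housekeeping programmes were called at shares of 0% to 12.5% of a list, beside 7.96% of all tested genes. The lists are short, so these counts do not set them apart. No gene was called by edgeR among 17 DNA replication, 16 mitosis, 16 STAT and SOCS or 16 histone methylation genes. Without SGC0649 replicate 1 there were 2 higher STAT and SOCS genes, and 2 higher and 1 lower histone methylation genes. Without SGC0649 replicate 2, 1 DNA replication gene was higher and 1 STAT and SOCS gene lower, and without SGC0946 replicate 1, 1 STAT and SOCS gene was lower. All 16 mitosis genes had a positive log2 fold change, from 0.06 to 0.39 with a median of 0.22, but the median was -0.06 without SGC0649 replicate 1 and 0.55 without SGC0649 replicate 2. In the glycolysis list Pgk1 (0.32 ± 0.08) and Slc16a3 (0.36 ± 0.08) rose out of 16 genes, and among 22 cholesterol genes the exporter gene Abca1 rose (0.94 ± 0.21). Slc16a3 lost its call without SGC0946 replicate 2, Abca1 without SGC0649 replicate 2 or SGC0946 replicate 1, and Pgk1 without any of these 3 libraries. Markers of B, myeloid, NK, erythroid and stromal cells had no called gene by edgeR, although 1 myeloid marker was higher without SGC0946 replicate 2 and 1 stromal marker without SGC0649 replicate 1, and the plasmacytoid marker Siglech and the collagen gene Col3a1 had 0 counts in all 4 libraries. Summed myeloid markers were 26.8 and 12.6 CPM with SGC0946 and 16.4 and 9.34 CPM with SGC0649.

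Among called genes with a mean log2 CPM of 1 or more, the highest fold changes included genes of low level, such as Glis3. Glis3, a zinc finger factor gene, had 2.01 and 2.15 CPM with SGC0946 and 0.197 and 0.283 CPM with SGC0649 (3.05 ± 0.48, edgeR adjusted p = 0.000972). Rbm47, an RNA-binding protein gene, had 18.4 and 13.6 CPM with SGC0946 and 3.45 and 3.02 CPM with SGC0649 (2.30 ± 0.23, edgeR adjusted p = 2.24e-05). Epcam, the gene of an epithelial adhesion molecule, had 35.8 and 34.03 CPM with SGC0946 and 10.1 and 7.45 CPM with SGC0649 (1.997 ± 0.20, edgeR adjusted p = 1.86e-05). These 3 genes, Shisa2 (2.43 ± 0.36) and Arhgap32 (2.24 ± 0.45) were stable, whereas Igsf10, Lcn4, A4galt, Layn, Olfr60, Sntb1, Clic5 and Mmp9, with log2 fold changes of 2.05 to 2.41, each lost their call in at least 1 leave-out. At the low end of the same genes, after Lta, stood Timp1, an inhibitor of metalloproteinases, with 5.01 and 5.61 CPM in SGC0946 cultures and 14.9 and 19.5 CPM in SGC0649 cultures (-1.69 ± 0.25, edgeR adjusted p = 0.000616). Selp, the gene of P-selectin (-1.42 ± 0.19), the copine gene Cpne6 (-1.51 ± 0.26) and the activating receptor gene Cd226 (-1.38 ± 0.25) fell too, and all 4 were stable. Il1rn, Lad1 and Gap43 had log2 fold changes of -1.57, -1.54 and -1.35 and lost their calls without SGC0649 replicate 2 or SGC0946 replicate 1, and Gap43 also without SGC0946 replicate 2.

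Dot1l itself was not called: it had 135.6 and 152.5 CPM in SGC0946 cultures, against 144.7 and 173.8 CPM in SGC0649 cultures, with overlapping ranges (-0.15 ± 0.11, edgeR adjusted p = 0.486). In KO Th2 cultures it had 112.9 and 92.5 CPM, against 148.5 and 164.1 CPM in WT (-0.60 ± 0.11), counted over the whole gene and not over the deleted part. Of 15 DOT1L and elongation partner genes 1 was called with the inhibitor. That share (6.67%) is near the 7.96% of all tested genes, so the count does not set the list apart. The gene was Aff3, of the AFF family of elongation scaffolds. It had 21.2 and 18.7 CPM with SGC0946 and 42.2 and 40.7 CPM with SGC0649 (-1.06 ± 0.13, edgeR adjusted p = 0.000192, stable).

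Deletion of Dot1l in Th2 cultures, measured in other libraries, changed the same genes mostly the same way and by more. In KO over WT, 6980 genes (53.4%) were called, 3465 (26.5%) higher and 3515 (26.9%) lower. Of the 712 genes higher with SGC0946, 521 (73.2%) were also higher in KO, which is 15% of the KO's higher genes, and 62 (8.71%) were lower. Of the 328 lower genes, 241 (73.5%) were also lower in KO, 6.86% of its lower genes, and 11 (3.35%) were higher. With 1 library left out the shared share was 60% to 78.9% of the higher and 49.1% to 88.8% of the lower genes, the lowest of each without SGC0649 replicate 1. The median KO log2 fold change was 1.04 in the higher and -0.70 in the lower genes. Across genes the 2 sets of log2 fold changes had a Pearson r of 0.40 over all 13072 and 0.68 over the 1040, given as a description since genes are not independent and the 1040 were chosen by their size.

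**Figure D4:**
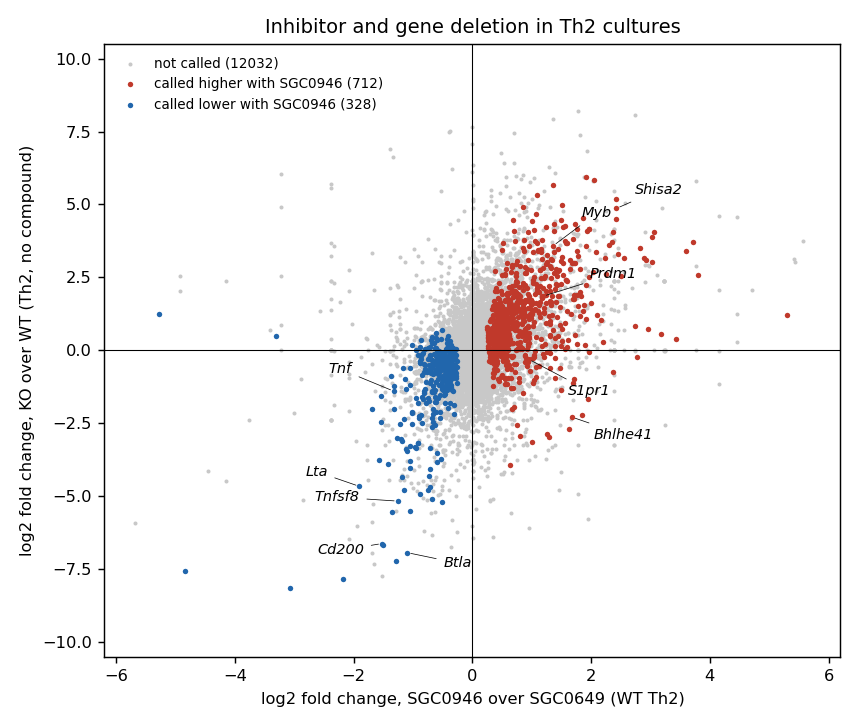
Each point is a gene, with the log2 fold change of SGC0946 over SGC0649 in WT Th2 cultures on the horizontal axis and that of KO over WT Th2 cultures without compound on the vertical axis; the 2 comparisons share no library. Most red and blue points lie in the upper right and lower left, Btla and Cd200 far down, and S1pr1 and Bhlhe41 among the genes at lower right.

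The size of the difference varied by gene. Cd200 had 2.45 and 2.59 CPM in KO Th2 cultures, against 241.2 and 255.3 CPM in WT (-6.62 ± 0.20), and Btla had 2.01 and 1.29 CPM in KO, against 204.9 and 209.6 CPM in WT (-6.93 ± 0.19). The inhibitor effects on these genes were -1.52 and -1.10, and the test of KO effect minus inhibitor effect gave -5.10 ± 0.25 for Cd200 and -5.83 ± 0.23 for Btla (edgeR adjusted p = 6.11e-10 and 5.10e-11). For Lta the difference was -2.76 ± 0.31 (edgeR adjusted p = 5.27e-06) and for Myb it was 2.22 ± 0.16 (edgeR adjusted p = 5.67e-08). Tnf did not pass this test: its log2 fold change in KO was -1.40 ± 0.17 and the difference was -0.08 ± 0.26 (edgeR adjusted p = 0.858). For Epcam it was -0.39 ± 0.27 (edgeR adjusted p = 0.305). Over all genes 4179 (32%) passed this test.

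A few named genes went opposite ways under the compound and the deletion. S1pr1 had 93.5 and 97.6 CPM in KO, against 107.3 and 128.3 CPM in WT (-0.30 ± 0.11, edgeR adjusted p = 0.0228), and its KO effect minus inhibitor effect was -1.25 ± 0.15 (edgeR adjusted p = 9.48e-06). Selenbp1, a selenium-binding protein gene, rose with SGC0946 (0.92 ± 0.11) and was lower in KO (-0.35 ± 0.11; difference -1.27 ± 0.15, edgeR adjusted p = 1.06e-05). Bhlhe41, a repressor known to promote Th2 differentiation, had 60.7 and 36.2 CPM with SGC0946 and 21.8 and 8.58 CPM with SGC0649, and 6.91 and 4.96 CPM in KO, against 31.6 and 26.9 CPM in WT (KO log2 fold change -2.29 ± 0.37). Foxo1 likewise rose with SGC0946 and was lower in KO (-0.63 ± 0.09), and for Cxcr4 and Klf2 the KO log2 fold changes of 0.04 and -0.40 were not called.

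The same compounds in Th1 cultures gave fewer calls: 61 genes (0.467%), 53 higher (0.405%) and 8 lower (0.0612%), or 182 with the replicate block. Of these, 35 higher and 4 lower genes were also called in the same direction in Th2. A test of the Th2 effect minus the Th1 effect gave 68 genes (0.52%), 39 higher (0.298%) and 29 lower (0.222%), and 142 with the block. Lta had 33.8 and 32.3 CPM in Th1 cultures with SGC0946 and 37.5 and 30.3 CPM with SGC0649 (-0.03 ± 0.17), and its Th2 minus Th1 difference was -1.87 ± 0.25 (edgeR adjusted p = 0.00293). Tnf had 80.5 and 93.5 CPM in Th1 cultures with SGC0946 and 69.2 and 52.7 CPM with SGC0649 (difference -1.84 ± 0.23, edgeR adjusted p = 0.00158). Myb had 104.5 and 114 CPM in Th1 cultures with SGC0946 and 114.4 and 116.4 CPM with SGC0649 (difference 1.44 ± 0.16, edgeR adjusted p = 0.000921). In Th2 these genes separated the compounds, and in Th1 the ranges overlapped for Lta and nearly met for Myb. S1pr1 at 0.87 ± 0.15 and Cd200 at -1.26 ± 0.19 also passed (edgeR adjusted p = 0.0134 and 0.00752). By contrast Tnfrsf8 rose in Th1 (0.79) as in Th2 (0.75), and Prdm1 and Rbm47 were called higher in both cultures, with Th1 log2 fold changes of 0.59 and 1.53. The count of 68 moved between 9 and 276 with 1 library left out; it was 276 without SGC0649 replicate 1 of Th2 and 9 without SGC0649 replicate 1 or SGC0946 replicate 2 of Th1.

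**Figure D5:**
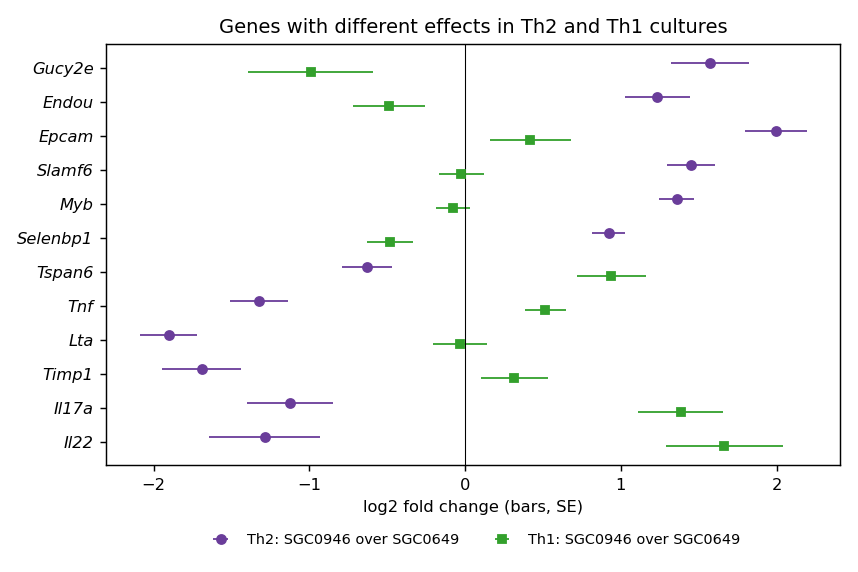
The genes shown passed the test of Th2 effect minus Th1 effect and had no overlap between the 2 compound groups in Th2. They are the 6 highest and 6 lowest of such genes by that difference. Points give the log2 fold change of SGC0946 over SGC0649 in Th2 (circles) and Th1 (squares) with SE as bars. Lta and Myb are near 0 in Th1, and Il22 and Il17a lie on opposite sides of 0 in the 2 cultures.

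Set against WT Th2 cultures without compound, 2478 genes (19%) were called for SGC0946 and 88 (0.673%) for SGC0649. These comparisons share libraries with the main one, so values are only given side by side. The count for SGC0649 was 2474 without its replicate 1, 2 without its replicate 2 and 1151 with the replicate block. Lta had 63.3 and 79.8 CPM without compound, and its log2 fold change was -2.43 for SGC0946 and -0.52 for SGC0649. For Cd200 these were -2.09 for SGC0946 and -0.57 for SGC0649, and for S1pr1 0.77 for SGC0946 and -0.18 for SGC0649. Myb was higher with both compounds, by 2.09 for SGC0946 and 0.73 for SGC0649 (edgeR adjusted p = 0.0170 for SGC0649), and Tnfsf8 lower with both, by -1.88 for SGC0946 and -0.62 for SGC0649 (edgeR adjusted p = 0.0463 for SGC0649).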

How the data were processed

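RNA-seq libraries of CD4+ T cells were analysed from the table of protein-coding genes. The authors deposited read counts per gene, made with featureCounts 1.5.3 at strand setting 2 on Ensembl release 84 of GRCm38, per the file headers; reads that align to several places went uncounted, which leaves near-identical genes uncertain. Gene length, another deposited quantity, is in bases per the file headers and entered no test. The submitters' processing notes also name limma and edgeR, with no version; the aligner is not given in the sources used here.

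Of 22048 genes, 13072 passed filterByExpr (10 counts, 15 in total). All 20 libraries were fitted with 10 group means in edgeR 4.0.16 under R 4.3.3 (TMM scaling, robust quasi-likelihood dispersions, 10 residual degrees of freedom). Contrasts were tested by quasi-likelihood F tests, adjusted by Benjamini-Hochberg over all genes and called at 0.05. SE is the size of the log2 fold change over the root of F. CPM are TMM-scaled. The same steps were tested on simulated data.

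Members of the comparison and all gene lists were chosen with earlier results of these data known, so lists are described by counts and medians only. Named were Lta, Cd200, S1pr1, Dot1l, Gata3, Il4, Il5, Il13, Ifng and Tbx21, the 12 highest and 12 lowest called genes (average log2 CPM of at least 1, groups not overlapping), up to 3 called members of each list by p, and the 6 highest and 6 lowest passing genes in the Th2 minus Th1 test. Both limits in brackets also held for this last choice, with overlap judged between the Th2 groups. Genes whose Th2 groups overlapped could therefore not enter it. Tnfsf13b, Tnfsf4, Cd40lg, Ltb, Tnfrsf18, Lag3, Cd200r1, Entpd1, Pdcd1lg2, Cxcr4, Foxo1, S1pr4, Klf2, Gpr183, Cd6, Nrp1, Il21, Ifit2, Oasl1, the 2 uncalled neighbours of Btla and Cd200 and those called beside Lta were chosen after their values were seen, and uncalled list members serve as examples. Same-numbered WT cultures deviated together (correlations 0.197 to 0.703 over 15 pairs), the most for SGC0946 with SGC0649 in Th2. The replicate number was therefore taken to pair libraries in the block fit, from the data and not the labels. The main fit and the leave-outs did not use this pairing. Alternatives were DESeq2 1.42.0, limma 3.58.1 voom, RLE scaling, no filter, all gene classes, fewer libraries, the replicate block and each library left out; DESeq2 and voom on 4 libraries and the list counts in each leave-out were added after seeing the data. Promoter windows are RefSeq's, on GRCm38.p6. Groups of 2 are too small for a test of outlying libraries. Some list members are not reported here.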

Additional observations from a re-analysis of the deposited data

Results flagged for a closer look

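The effect of SGC0946 over SGC0649 differed between Th2 and Th1 cultures in edgeR's test of the difference itself for 22 of the named genes, given here as the Th2 minus Th1 difference in log2 fold change. Among TNF family genes it was -1.87 for Lta, -1.84 for Tnf, -0.98 for Tnfsf8 and -0.78 for Tnfrsf25. Among genes of inhibitory signalling it was -1.26 for Cd200, -1.04 for Btla and -0.71 for Cd274. The cytokine genes Il22, Il17a and Il21 had differences of -2.95, -2.51 and -1.50. Other negative differences were -2.01 for Timp1, -1.57 for Tspan6, -1.19 for Selp, -0.87 for Aff3 and -0.78 for Bcl2l1. Positive differences were 2.56 for Gucy2e, 1.72 for Endou, 1.58 for Epcam, 1.47 for Slamf6, 1.44 for Myb, 1.4 for Selenbp1 and 0.87 for S1pr1. Adjusted p in edgeR ran from 0.000921 for Myb to 0.0383 for Epcam. Most named genes were chosen by their effect in Th2 or by this same test, so the 22 do not show how common such differences are. Over all tested genes 68 (0.52%) passed. The differences of Tnfsf8, Tnfrsf25, Cd200, Btla, Cd274, Il21, Selp, Aff3, Bcl2l1 and S1pr1 were not recomputed under the alternatives. Those recomputed were the 6 highest and 6 lowest passing genes whose compound groups did not overlap in Th2. Of the 6 highest and 6 lowest, Lta, Tnf, Selenbp1, Myb and Slamf6 passed in all 15 alternatives tried, with the largest adjusted p at 0.0416 for Slamf6; the other 7 failed in some, Epcam in 9, Gucy2e and Il17a in 6 each, Il22 and Tspan6 in 5 each, Endou in 4 and Timp1 in 3. Il17a and Il22 carried part of their difference in Th1, where Il17a had 95.8 and 102.7 CPM with SGC0946 and 40.6 and 35.5 CPM with SGC0649.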

How the results depend on the processing

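The count of 1040 genes stayed within 1.5 times under DESeq2, limma voom, RLE scaling, no low-count filter, the table of all gene classes and the 12 WT culture libraries alone (971 to 1139). With the replicate block it was 1647 (597 lower), and this fit lost no named call and added Il5, as did limma voom. With the 4 libraries alone edgeR and limma voom called 0 genes (0 higher, 0 lower) and DESeq2 219 (165 higher, 54 lower), a fit with fewer samples to estimate the spread. With 1 library left out, the lone library being assumed to vary like the other groups, the count was 321 to 2010, with 223 to 1219 higher and 98 to 791 lower. The Th1 count of 61 was 140 with DESeq2, 100 without the filter, 102 in the 12 WT culture libraries, 182 with the block and 2 to 7 with 1 library left out. The Th2 minus Th1 count of 68 was 143 with DESeq2, 142 with the block and 9 to 276 with 1 library left out. For SGC0649 over no compound, 88 became 531 with DESeq2, 137 with voom, 207 without the filter, 154 in the 12 WT culture libraries, 1151 with the block and 2 to 2474 with 1 library left out; SGC0946 over no compound gave 886 to 1531. The median of Th2 signature genes was -0.11 with 50 genes and 0.16 to 0.55 with 1 library left out, and that of Th1 genes 0.069 to 0.38. Ifng (-0.25) was -0.54 to 0.11 with 1 library left out, positive without SGC0649 replicate 2, and never called. Of the 95 calls examined one by one, DESeq2 lost 2 (Il9, Igsf10), voom 13 (Csf2, Oasl1, Oasl2, Ifit2, Gpr183, Mx1, Nrp1, Ccr3, Mmp9, Sntb1, A4galt, Lcn4, Igsf10), no filter 7 (Il17a, Il21, Bach2, Nrp1, Klf2, Ccr3, Mmp9), the table of all gene classes 4 (Tnfrsf18, Gzmb, Nrp1, Klf2) and the 12 WT culture libraries 4 (Gpr183, Tnfrsf18, Trp53inp1, Igsf10). The cause of these changes was not tested.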

Other observations

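Receptor and survival genes outside the groups above also held single calls in Th2 cultures with SGC0946 over SGC0649, at shares of 6.25% to 15.4% of a list, beside 7.96% of all tested genes, so the counts do not set these lists apart. All 7 tested receptor genes of the IL-1 family had positive log2 fold changes, and 1 was called: Il1r2, the decoy receptor of IL-1, had 340.8 and 258 CPM with SGC0946 and 175.8 and 107.1 CPM with SGC0649 (1.08 ± 0.23, edgeR adjusted p = 0.0124). In KO over WT Th2 cultures, which share no library with these, all 7 were called higher. Il2rb, the β chain of the IL-2 and IL-15 receptors, rose by 0.31 ± 0.08 and was the only call among 9 common γ chain receptor genes. Of 13 BCL2 family genes the pro-apoptotic Bik rose (0.96 ± 0.27) while Bcl2l1 fell. Of 13 p53 target genes Trp53inp1 rose (0.41 ± 0.11) and Zmat3 fell (-0.45 ± 0.10), and Cdkn1a had a log2 fold change near 0. Zmat3 was also lower in KO over WT Th2 cultures (-1.80), whereas Trp53inp1 was lower there (-0.42) and higher with SGC0946. Of 16 cytotoxic genes the call was Gzmb, granzyme B. The 7 tested mitochondrially encoded genes had log2 fold changes between -0.18 and -0.01, and the 10 handling stress genes between -0.63 and 0.62. Of these calls Bcl2l1 was stable. Bik lost it in each leave-out, Il2rb and Trp53inp1 in all leave-outs but that of SGC0649 replicate 1, Il1r2 without SGC0649 replicate 2 or SGC0946 replicate 1, Gzmb in all but that of SGC0649 replicate 2, and Zmat3 without SGC0946 replicate 1.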
